A study of Mus musculus with 4 samples.

Results

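The collagen chains were the genes whose symbol is Col, a number, a and a second number, which gave 44 of the 55382 genes in the deposited tables. They were grouped as 11 fibrillar chains, 8 basement membrane chains (Col4a1 to Col4a6, Col15a1 and Col18a1) and 25 other chains, which include the fibril-associated, beaded filament, short-chain and membrane-spanning collagens. The levels come from ribosome profiling, the sequencing of mRNA fragments that ribosomes protect from nuclease, of mouse hearts taken on day 15 after birth. All 4 libraries list cycloheximide at 100 µg/mL. Nat10 KO hearts, called NAT10-CKO in the study's design, gave 2 libraries, and WT hearts, called FF, gave 2. Nat10 is an RNA cytidine acetyltransferase. The promoter that drives the deletion, the cells that carry it and the alleles behind FF are absent from the labels used here. The labels also leave out whether the 2 libraries of a group came from different animals, so p-values measure the spread between libraries, possibly a technical one. The labels name cardiomyocytes as the cell type, while the protocol starts from heart tissue. Markers of fibroblasts, endothelial cells and macrophages were read in all 4 libraries beside those of cardiomyocytes, so the chains below are those of a mixed tissue. In such tissue, more cells of a type and more RNA per cell cannot be told apart.

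Collagens are secreted proteins of 3 chains wound into a triple helix, which the cell hydroxylates and folds in the endoplasmic reticulum before export. Fibrillar collagens are then trimmed and crosslinked into the fibers that carry tension in the heart wall, while basement membrane collagens form sheets around muscle cells and capillaries. In the heart, fibroblasts are known as the main source of types I and III, and endothelial and muscle cells contribute type IV. Footprint levels are given in FPKM, fragments scaled to gene length and library total, so that levels of different genes can be compared per length. Translation efficiency (TE) is the authors' ratio of footprints to RNA, and FPKM divided by TE is called the implied RNA level. A gene was called where limma's p-value, adjusted over all tested genes by Benjamini-Hochberg, was under 0.05.

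Promoters of 4 chains are shown because these chains recur below: Col1a2 and Col3a1 as chains of the most abundant collagens, and Col8a1 and Col8a2 as the pair of short-chain collagens that were both called at the RNA level. Each line holds the 150 bases before the annotated RefSeq start in GRCm38.p6, read 5′ to 3′ on the gene's own strand, and capitals mark matches on either strand to TATAAA (the TATA box letters), to the letters CCAAT, or to GGGCGG.
Col1a2, chr6:4505468-4505617, plus strand: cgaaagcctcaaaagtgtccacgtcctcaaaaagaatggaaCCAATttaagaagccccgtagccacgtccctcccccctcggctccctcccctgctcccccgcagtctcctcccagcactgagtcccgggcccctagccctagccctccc
Col3a1, chr1:45311388-45311537, plus strand: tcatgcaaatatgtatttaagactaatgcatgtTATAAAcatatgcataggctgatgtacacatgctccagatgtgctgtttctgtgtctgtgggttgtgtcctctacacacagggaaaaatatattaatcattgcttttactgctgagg
Col8a1, chr16:57754738-57754887, minus strand: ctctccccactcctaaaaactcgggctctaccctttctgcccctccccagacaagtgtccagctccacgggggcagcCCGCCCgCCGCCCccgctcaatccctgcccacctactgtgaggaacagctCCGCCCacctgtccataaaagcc
Col8a2, chr4:126286644-126286793, plus strand: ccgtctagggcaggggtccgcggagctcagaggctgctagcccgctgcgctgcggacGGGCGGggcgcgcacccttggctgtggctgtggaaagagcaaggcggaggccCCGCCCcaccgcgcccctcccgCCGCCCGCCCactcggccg
The Col1a2 window holds CCAAT beginning 109 bases before the start, and the Col3a1 window holds TATAAA beginning 117 bases before it. Col8a1 holds GGGCGG, the letters of the GC box, at 73, 66 and 23 bases before the start, all on the reverse strand. Col8a2 holds it at 93 bases on the forward strand and at 41, 19 and 15 bases on the reverse strand, where the last pair of matches overlap. Over such windows of 27025 promoters, 29.0% held GGGCGG, 25.3% held CCAAT and 8.08% held TATAAA. Among the 35 chains with a promoter in the table, 19, 7 and 4 held these letters, in that order. A match describes the letters of the window and is not evidence of a bound factor.

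Of the whole libraries, summed footprint FPKM ran between 7.04e+06 and 8.73e+06, with 16425 to 16900 genes above 0 and 48.9% to 57.0% of the sum in mitochondrial tRNA genes. FPKM hold no read counts, so the depth is unknown. The median footprint level of tested genes was 23.3 and 28.7 FPKM in KO hearts, against 20.4 and 17.3 FPKM in WT hearts. The median log2 change of all tested genes was therefore 0.36 for footprints, 0.22 for the implied RNA level and 0.15 for TE, and changes of the chains are set beside these or given after median-ratio scaling. Nat10 itself had 40.0 and 52.1 FPKM of footprints in KO hearts, against 77.3 and 73.9 FPKM in WT hearts (log2 change -0.71 ± 0.30 SE, limma adjusted p = 0.295).

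Collagen footprints were more abundant in KO hearts as a body. Summed over all chains they reached 57616 and 74942 FPKM in KO hearts, against 29878 and 24151 FPKM in WT hearts, or 66279 ± 12251 against 27015 ± 4050 (SD, n = 2 each), a 2.45-fold difference that was 1.89-fold after median-ratio scaling. As a share of the summed footprints of genes with a name, small RNA genes left out, they made up 3.01% and 3.15% in KO hearts and 1.46% and 1.15% in WT hearts. The groups did not overlap in either measure, and with 2 libraries against 2 an exact two-sided permutation test cannot go below p = 0.333. The implied RNA level of all chains summed to 3230 and 2616 FPKM in KO hearts and 1484 and 1763 FPKM in WT hearts, 1.80-fold apart and again without overlap.

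The composition of the collagen pool differed as well. Fibrillar chains held 82.7% and 78.7% of collagen footprints in KO hearts, against 76.3% and 76.7% in WT hearts, while basement membrane chains held 10.4% and 12.5% in KO hearts and 16.3% and 15.3% in WT hearts. The other chains held 6.85% and 8.78% in KO hearts and 7.42% and 7.99% in WT hearts, which overlap. Col1a1, Col1a2 and Col3a1 together had 9.16 and 6.99 times the footprints of Col4a1 and Col4a2 in KO hearts, against 5.49 and 5.97 times in WT hearts. At the implied RNA level the basement membrane share was 32.4% and 34.9% in KO hearts and 42.4% and 35.3% in WT hearts, a gap to WT replicate 2 of less than 1 percentage point, and the fibrillar shares of the groups overlapped.

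**Figure D1:**
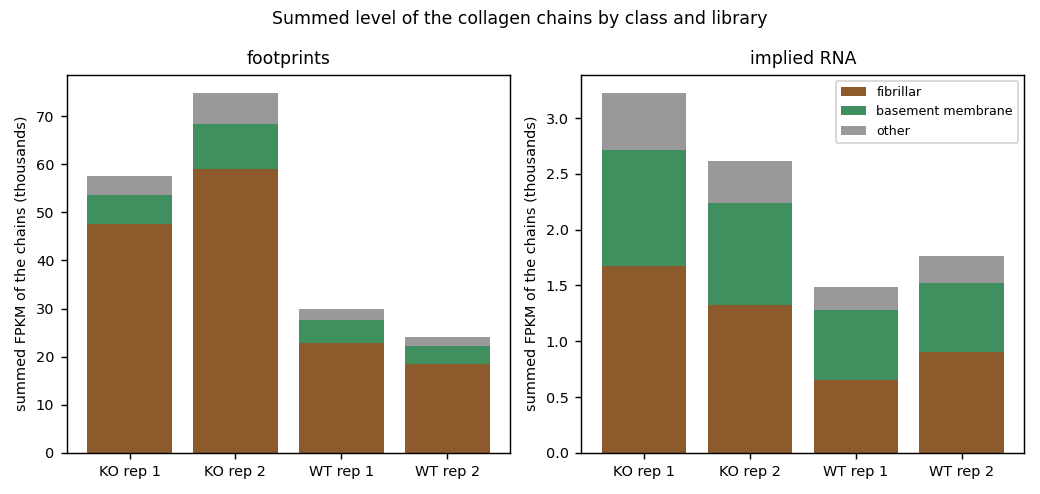
Stacked bars give the summed FPKM of the fibrillar, basement membrane and other collagen chains in each library, for footprints (left) and the implied RNA level (right), with KO libraries left of WT libraries. Both KO bars stand above both WT bars in each panel, and fibrillar chains take 82.7% and 78.7% of the KO footprint bars, against 76.3% and 76.7% of the WT bars.

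Chain by chain, 38 of the 44 were tested for footprints (FPKM of at least 1 in at least 2 libraries), and 36 of these 38 had a log2 change above 0, or 34 after median-ratio scaling. Of all 15031 tested genes, 10693 had a log2 change above 0, or 7823 after scaling. Both KO libraries lay above both WT libraries for 29 chains, against 39.5% of all 15031 tested genes, and below both for 1 chain, Col20a1, against 12.1% of all tested genes. An unadjusted p under 0.05 with a higher level in KO hearts was reached by 21 chains, against 13.5% of all tested genes, and by no chain with a lower level. After adjustment 0 chains were called in either direction, where 0.253% of all tested genes were called higher and 0.126% lower. The median log2 change was 1.15 over the 38 chains, or 0.80 after scaling, with 1.32 for the fibrillar, 0.85 for the basement membrane and 1.12 for the other chains. Tested with small RNA genes and unnamed gene models left out, 6 chains passed the adjusted threshold, all higher in KO hearts: Col1a1, Col1a2, Col3a1, Col5a2, Col8a1 and Col12a1. That setting called 1.30% of its 12949 genes higher, and its chains' log2 changes were those of the fit over all genes.

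At the implied RNA level, 37 chains had a value above 0 in all libraries. Both KO libraries lay above both WT libraries for 27 of them, against 44.2% of all 12529 genes, and below both for 1, Col6a6, against 18.6%. An unadjusted p under 0.05 was reached by 23 chains with a higher level, against 21.1% of all genes, and by 1 with a lower level, Col6a6. After adjustment 5 chains rose (4.20% of all genes were called higher) and 0 fell (1.53% lower): Col8a1, Col12a1, Col9a2, Col5a2 and Col8a2. The median log2 change was 0.76 over the 37 chains, or 0.54 after scaling. Without KO replicate 2 the calls were 22, of which 21 were higher and 1, Col6a6, was lower, while the share called higher of all genes was 21.0%; KO replicate 2 thus moved the count of called chains over 4-fold, and that of all genes with it.

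**Figure D2:**
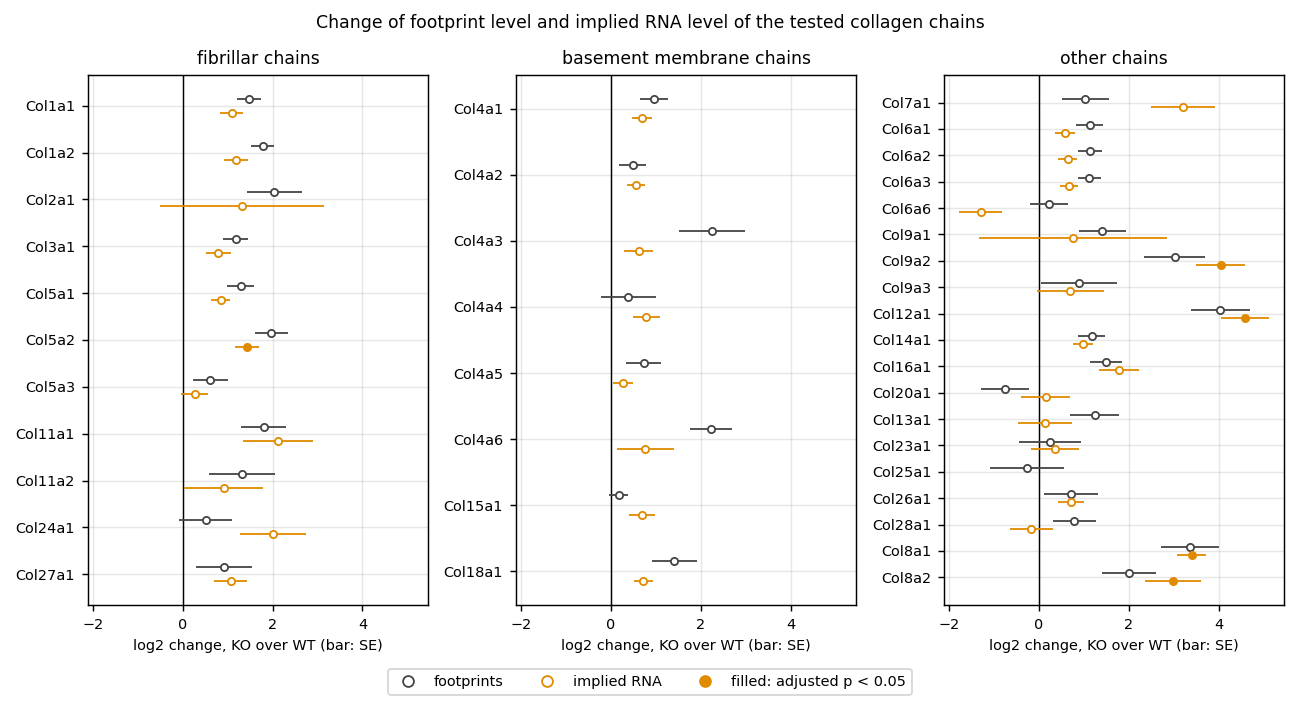
Points give the log2 change, KO over WT, of each tested chain with its standard error as a bar, for footprints (grey, upper) and the implied RNA level (orange, lower), and filled points have a limma adjusted p under 0.05. Nearly all points lie right of 0 in all 3 classes, and the 5 filled points, all for RNA, are Col5a2, Col9a2, Col12a1, Col8a1 and Col8a2.

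Type I and type III collagen, the tension-bearing fibers and the more compliant fibers of the heart wall, supplied most of the collagen footprints. Col3a1 (chr1:45311538-45349706) had 25023 and 30048 FPKM in KO hearts, against 13280 and 11093 FPKM in WT hearts. It was the gene with the highest footprint level among all chains in all 4 libraries, and it ranked 4 and 4 among 12949 named genes in KO hearts, against 17 and 18 in WT hearts. The footprint difference was 2.26-fold (log2 change 1.18 ± 0.29 SE, limma adjusted p = 0.175), and the implied RNA level, 769 and 582 FPKM in KO hearts and 333 and 448 FPKM in WT hearts, differed by 1.73-fold (limma adjusted p = 0.126).

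Col1a1 (chr11:94936224-94953042), the more numerous chain of the type I helix, had 11776 and 13924 FPKM of footprints in KO hearts, against 5272 and 4013 FPKM in WT hearts. Its partner Col1a2 (chr6:4505618-4541543), whose promoter is printed above, had 9064 and 11841 FPKM in KO hearts, against 3372 and 2718 FPKM in WT hearts. Both chains were higher in each KO library than in each WT library. The log2 changes were 1.48 ± 0.27 SE for Col1a1 (limma adjusted p = 0.124) and 1.77 ± 0.26 SE for Col1a2 (limma adjusted p = 0.087), or 1.10 and 1.40 after scaling. The implied RNA level of Col1a1 was 338 and 304 FPKM in KO hearts, against 124 and 182 FPKM in WT hearts (log2 change 1.09, limma adjusted p = 0.058). That of Col1a2 was 359 and 288 FPKM in KO hearts, against 117 and 172 FPKM in WT hearts (log2 change 1.18, limma adjusted p = 0.055).

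Type V collagen is known to start type I fibrils and to limit their width. Col5a2 (chr1:45374331-45503282), which lies 24624 bases from Col3a1, had 900 and 1827 FPKM of footprints in KO hearts, against 356 and 300.0 FPKM in WT hearts (log2 change 1.97 ± 0.37 SE, limma adjusted p = 0.126). Its implied RNA level, 81.0 and 60.6 FPKM in KO hearts against 21.5 and 31.3 FPKM in WT hearts, rose 2.701-fold (log2 change 1.43 ± 0.27 SE, limma adjusted p = 0.040). This call was lost without WT replicate 1 (adjusted p = 0.137). Col5a1 (chr2:27886381-28039510), the partner chain, had 789 and 1220.2 FPKM of footprints in KO hearts, against 463 and 347 FPKM in WT hearts (log2 change 1.29 ± 0.30 SE, limma adjusted p = 0.162). In implied RNA, Col5a1 stood at 97.2 and 77.7 FPKM in KO hearts, against 44.97 and 52.4 FPKM in WT hearts (log2 change 0.84, limma adjusted p = 0.071). Col5a3, the least abundant type V chain, was 55.2 and 110 FPKM in KO hearts, against 51.5 and 49.6 FPKM in WT hearts, and its implied RNA levels overlapped.

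The remaining fibrillar chains are best known from cartilage or as minor chains, and all had under 24 FPKM of footprints. Col2a1, the main fibrillar chain of cartilage, showed the largest fibrillar change in footprints, with 6.60 and 10.6 FPKM in KO hearts against 0.589 and 2.28 FPKM in WT hearts (log2 change 2.04 ± 0.62 SE, limma adjusted p = 0.222), while its implied RNA levels, all under 1 FPKM, overlapped. Col11a1, a type XI chain that accompanies type II in cartilage, had 13.0 and 19.7 FPKM in KO hearts and 4.33 and 3.43 FPKM in WT hearts. Col24a1 showed the smallest fibrillar change in footprints, with 1.57 and 0.841 FPKM in KO hearts against 1.02 and 0.162 FPKM in WT hearts (log2 change 0.51 ± 0.58 SE, limma adjusted p = 0.676), and its footprint groups overlapped. Its implied RNA levels did not overlap, at 0.765 and 0.620 FPKM in KO hearts, against 0.0923 and 0.319 FPKM in WT hearts (log2 change 2.00, limma adjusted p = 0.139). Col11a2 and Col27a1 lay higher in both KO libraries, by 1.32 and 0.92 on the log2 scale, and neither passed the test. The summed footprints of 6 chondrocyte markers were 18.3 and 22.6 FPKM in KO hearts, against 5.26 and 6.54 FPKM in WT hearts. Matn1 was at 0 in all 4 libraries and Matn3 at 0 in 3. In the implied RNA level 1 of the 2 tested markers was called higher, Sox9, against 4.20% of all genes. Sox9 had 6.81 and 5.71 FPKM of implied RNA in KO hearts, against 1.05 and 2.04 FPKM in WT hearts (log2 change 2.09, limma adjusted p = 0.038). The part of these markers in the levels of the cartilage chains was not tested.

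**Figure D3:**
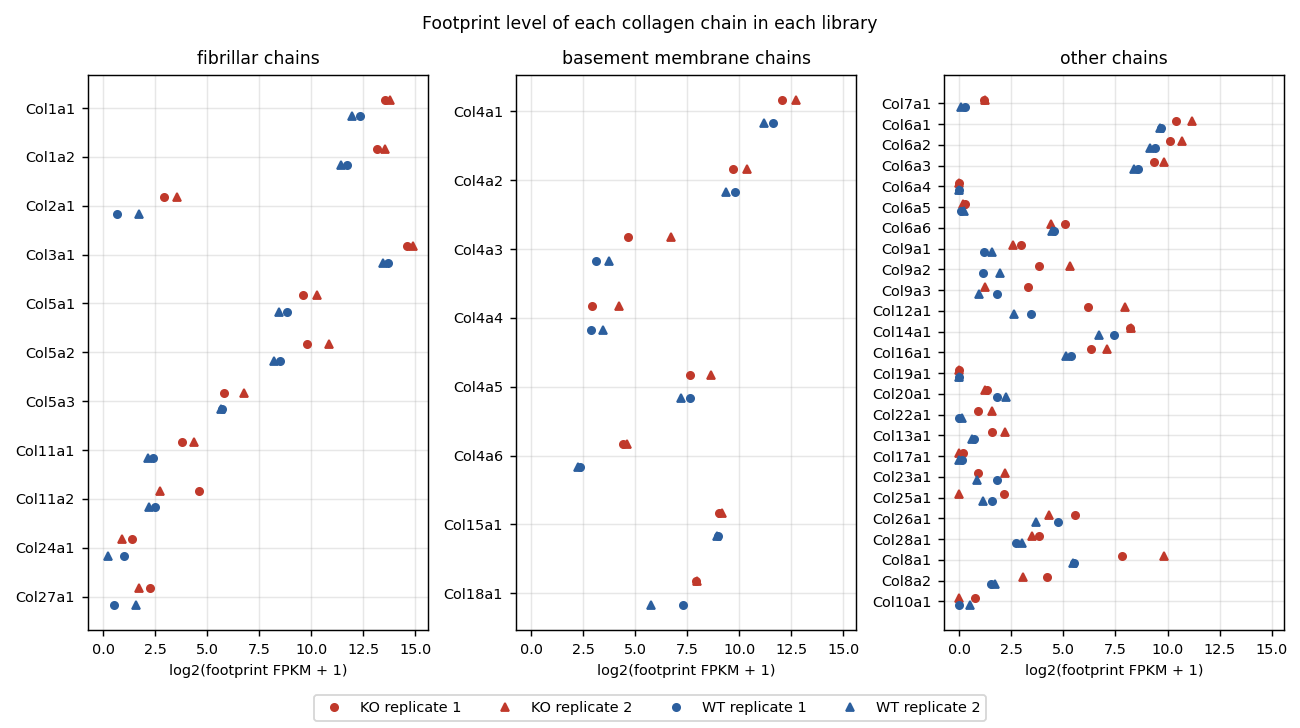
Each row is a collagen chain and each point a library, on a log2(footprint FPKM + 1) axis, with KO libraries in red above WT libraries in blue and the 3 classes in separate panels. The KO points lie right of the WT points for 29 of the 38 tested chains, and levels span from 0 (Col6a4 and Col19a1) to 30048 FPKM (Col3a1 in KO replicate 2).

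Type IV collagen forms the network of basement membranes, and its ubiquitous helix joins Col4a1 with Col4a2. Col4a1 (chr8:11198423-11312889) had 4170.4 and 6657 FPKM of footprints in KO hearts, against 3117 and 2332 FPKM in WT hearts (log2 change 0.97 ± 0.31 SE, limma adjusted p = 0.235). Col4a2 (chr8:11312805-11449287) had 837 and 1331 FPKM in KO hearts, against 877 and 653 FPKM in WT hearts (log2 change 0.48 ± 0.30 SE, limma adjusted p = 0.444). The KO libraries were the higher ones for Col4a1, while for Col4a2 KO replicate 1 lay between the WT libraries. At the implied RNA level neither pair overlapped: Col4a1 was at 474 and 445 FPKM in KO hearts and 294 and 276 FPKM in WT hearts, and Col4a2 was at 285 and 285 FPKM in KO hearts and 194 and 193 FPKM in WT hearts (limma adjusted p = 0.104 and 0.137).

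Among the rarer type IV chains, known from the basement membrane of the kidney glomerulus and from smooth muscle, Col4a5 was the most abundant. It had 199 and 397 FPKM of footprints in KO hearts, against 196 and 146 FPKM in WT hearts, so that KO replicate 1 exceeded WT replicate 1 by under 3 FPKM. Col4a3 showed the largest change of the class, with 23.7 and 103 FPKM in KO hearts against 7.54 and 12.3 FPKM in WT hearts (log2 change 2.25 ± 0.73 SE, limma adjusted p = 0.235). Col4a6 was close to it, with 20.1 and 23.4 FPKM in KO hearts against 3.99 and 3.698 FPKM in WT hearts (log2 change 2.23 ± 0.46 SE, limma adjusted p = 0.150). Col4a4, with 6.54 and 17.5 FPKM in KO hearts and 6.37 and 10.03 FPKM in WT hearts, overlapped between groups.

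Col15a1 and Col18a1 code for the multiplexins, proteoglycan collagens that link basement membranes to the matrix beneath, and Col18a1 is the precursor of endostatin. Col15a1 (chr4:47207655-47313167) showed the smallest footprint change of its class, with 519 and 575 FPKM in KO hearts against 494 and 479 FPKM in WT hearts. Its log2 change was 0.17 ± 0.21 SE (limma adjusted p = 0.696) and turned to -0.20 after median-ratio scaling, so these data give it no direction. In implied RNA it stood at 228 and 131 FPKM in KO hearts, against 104 and 111 FPKM in WT hearts (limma adjusted p = 0.185). Col18a1 (chr10:77052178-77166530) had 238 and 249.01 FPKM of footprints in KO hearts, against 155 and 53.5 FPKM in WT hearts (log2 change 1.41 ± 0.50 SE, limma adjusted p = 0.253).

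Type VI collagen builds the beaded filaments around muscle fibers from Col6a1, Col6a2 and Col6a3. Col6a1 had 1355 and 2306 FPKM of footprints in KO hearts, against 833 and 788 FPKM in WT hearts. Col6a2 had 1122 and 1642 FPKM in KO hearts, against 671 and 573 FPKM in WT hearts. Col6a3 had 655 and 905 FPKM in KO hearts, against 379 and 330 FPKM in WT hearts. The 3 chains were higher in both KO libraries by nearly equal amounts, with log2 changes of 1.12, 1.13 and 1.12, in that order (limma adjusted p = 0.189, 0.164 and 0.158), and their implied RNA levels differed by 1.49-fold, 1.55-fold and 1.59-fold without overlap. Col6a6, a further type VI chain, went the other way in RNA. It had 1.01 and 2.49 FPKM of implied RNA in KO hearts, against 3.27 and 4.64 FPKM in WT hearts (log2 change -1.30 ± 0.48 SE, limma adjusted p = 0.139), and its footprints, 32.6 and 19.8 FPKM in KO hearts and 22.6 and 20.9 FPKM in WT hearts, overlapped.

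The chains with the largest differences were not the most abundant ones. Col12a1 (chr9:79598987-79721141), a fibril-associated collagen that decorates type I fibrils, had 72.5 and 250.5 FPKM of footprints in KO hearts, against 10.01 and 5.20 FPKM in WT hearts. This was the largest footprint change of all chains, at 16.5-fold (log2 change 4.04 ± 0.66 SE, limma adjusted p = 0.107). RNA followed: the implied level, 24.6 and 15.0 FPKM in KO hearts against 0.464 and 1.38 FPKM in WT hearts, rose by 4.58 ± 0.54 SE on the log2 scale (limma adjusted p = 0.019). The implied RNA level of WT hearts was under 2 FPKM, and KO replicate 2 held over 3 times the footprints of KO replicate 1 but less implied RNA.

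Col8a1 (chr16:57624256-57754737) and Col8a2 (chr4:126286794-126314330), whose promoters are printed above, form the hexagonal lattice of type VIII collagen, a short-chain collagen of vessel walls and of Descemet's membrane in the eye. Col8a1 had 223 and 921 FPKM of footprints in KO hearts, against 43.7 and 43.0 FPKM in WT hearts (log2 change 3.36 ± 0.64 SE, limma adjusted p = 0.131). Its implied RNA level, 77.8 and 41.4 FPKM in KO hearts against 5.54 and 5.22 FPKM in WT hearts, rose 10.6-fold (log2 change 3.40 ± 0.32 SE, limma adjusted p = 0.014). Col8a1 was the chain with the smallest adjusted p for RNA, and the call held under each left-out library and each other setting run. Col8a2 had 17.3 and 7.32 FPKM of footprints in KO hearts, against 1.89 and 2.25 FPKM in WT hearts. The implied RNA level, 4.44 and 2.51 FPKM in KO hearts against 0.237 and 0.753 FPKM in WT hearts, rose 7.90-fold (log2 change 2.98 ± 0.62 SE, limma adjusted p = 0.046), and this call was lost without KO replicate 1 (adjusted p = 0.094). Col10a1, the third short-chain collagen and a marker of hypertrophic cartilage, was under 1 FPKM in all 4 libraries and was not tested.

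Col9a2 codes for a chain of type IX collagen, which sits on type II fibrils in cartilage. It had 13.2 and 38.2 FPKM of footprints in KO hearts, against 1.23 and 2.82 FPKM in WT hearts. Its implied RNA level, 21.5 and 8.40 FPKM in KO hearts against 0.561 and 1.18 FPKM in WT hearts, rose 16.5-fold (log2 change 4.05 ± 0.54 SE, limma adjusted p = 0.024). The partner chains Col9a1 and Col9a3 stayed under 1 FPKM of implied RNA in all 4 libraries, with overlapping groups. So 1 of the 3 chains of the type IX helix was called in RNA. In footprints Col9a1 had 6.75 and 4.99 FPKM in KO hearts, against 1.25 and 1.92 FPKM in WT hearts (limma adjusted p = 0.269). These footprint groups did not overlap, while those of Col9a3 did.

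Of the other fibril-associated chains, Col14a1 (chr15:55307644-55520803) had 291 and 306 FPKM of footprints in KO hearts, against 171 and 102 FPKM in WT hearts (log2 change 1.17 ± 0.31 SE, limma adjusted p = 0.186). Col16a1 (chr4:130047817-130099277) had 80.0 and 137 FPKM in KO hearts, against 39.7 and 34.03 FPKM in WT hearts (log2 change 1.49 ± 0.36 SE, limma adjusted p = 0.174). Both were higher in each KO library, and their implied RNA levels did not overlap either (limma adjusted p = 0.058 for Col14a1 and 0.064 for Col16a1). Col20a1 showed the smallest change of the class and the lowest of all chains, with 1.47 and 1.33 FPKM of footprints in KO hearts against 2.46 and 3.74 FPKM in WT hearts (log2 change -0.75 ± 0.53 SE, limma adjusted p = 0.485), while its implied RNA levels overlapped. Col7a1, the chain of the anchoring fibrils of skin, had 3.41 and 1.67 FPKM of implied RNA in KO hearts against 0.132 and 0.506 FPKM in WT hearts (log2 change 3.20 ± 0.72 SE, limma adjusted p = 0.054).

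The other chains were rare. Col13a1, Col23a1, Col26a1, Col28a1 and Col25a1 had 0 to 45.7 FPKM of footprints, and none passed a test. Below the limit for testing were Col6a5, Col17a1, Col10a1 and Col22a1, and Col6a4 and Col19a1 were listed at 0 in all 4 libraries. Col22a1, a chain of the muscle-tendon junction, had 0.883 and 1.95 FPKM in KO hearts against 0 and 0.0738 FPKM in WT hearts, and passed the limit in 1 library. Col25a1 was listed at 0 in KO replicate 2, which left it without an RNA or TE test.

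For translation efficiency, the third measure, no chain was called. It was above WT in the fit for 25 of 37 chains, against 7458 of all 12529 genes. The median log2 change of the chains was 0.39, or 0.24 after scaling. Both KO libraries lay above both WT libraries for 6 chains, against 24.0% of all genes, and below both for 1 chain, Col20a1, against 12.0%. At an unadjusted p under 0.05, 2 chains were higher, Col13a1 and Col4a6, against 4.68% of all genes. After adjustment limma called 0 chains and 0% of all genes, where 759 of all 12529 genes had an unadjusted p under 0.05. The median over the chains became -0.02 without KO replicate 2, -0.06 without WT replicate 2, 0.72 without KO replicate 1 and 0.85 without WT replicate 1, so its direction rests on which libraries are kept. The median TE of all genes varied in the same way, with 3.78 and 4.68 in KO hearts and 4.10 and 3.31 in WT hearts.

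TE levels varied widely between chains. Col1a1 had a TE of 34.8 and 45.8 in KO hearts and 42.5 and 22.0 in WT hearts, which placed it at percentiles 98.6 and 98.8 of all genes in KO hearts and 99.1 and 97.9 in WT hearts. Col3a1 had a TE of 32.6 and 51.7 in KO hearts and 39.9 and 24.8 in WT hearts, at percentiles 98.5 and 99.0 in KO hearts and 99.0 and 98.2 in WT hearts. Col4a2, with 2.93 and 4.68 in KO hearts and 4.53 and 3.38 in WT hearts, lay near the middle of all genes, at percentiles 40.2 and 50.004 in KO hearts and 54.2 and 51.0 in WT hearts. In each library the type I and type III chains were thus near the top of all genes, and the groups overlapped for each of these chains.

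Ratios between chains of a single collagen type do not depend on library scaling. The footprint ratio of Col4a1 to Col4a2 was 4.984 and 4.9997 in KO hearts, against 3.56 and 3.57 in WT hearts. At the implied RNA level it was 1.66 and 1.56 in KO hearts, against 1.52 and 1.43 in WT hearts. The footprint ratios of a group nearly coincided and the groups stood apart, while the RNA ratios, 1.61 ± 0.07 in KO hearts and 1.47 ± 0.06 in WT hearts (SD, n = 2 each), were separated by a narrower gap. The log2 difference was 0.49 for footprints and 0.13 for RNA, with an exact two-sided permutation p = 0.333 for each, the smallest possible. The 2 genes overlap by 85 bases in the annotation, and without a known strand setting reads in that stretch cannot be assigned.

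Col4a3 and Col4a4, the pair on chromosome 1, overlap by 114 bases. Their footprint ratio was 3.63 and 5.86 in KO hearts, against 1.18 and 1.22 in WT hearts, while the implied RNA ratio, 0.467 and 0.592 in KO hearts and 0.610 and 0.580 in WT hearts, overlapped. Col4a5 over Col4a6, neighbours 1274 bases apart on the X chromosome, gave 9.88 and 16.9 in KO hearts, against 49.0 and 39.6 in WT hearts, in footprints, and overlapped in RNA.

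The type V ratio of Col5a1 to Col5a2 was lower in KO hearts in both measures. In footprints it was 0.877 and 0.668 in KO hearts, against 1.301 and 1.16 in WT hearts, and in implied RNA 1.20 and 1.28 in KO hearts, against 2.09 and 1.67 in WT hearts. Col1a1 over Col1a2 was 1.299 and 1.18 in KO hearts, against 1.56 and 1.48 in WT hearts, in footprints, whereas in RNA it was 0.942 and 1.06 in KO hearts and 1.06 and 1.06 in WT hearts. Type I also differed from type III: Col1a1 over Col3a1 was 0.471 and 0.463 in KO hearts, against 0.397 and 0.362 in WT hearts, in footprints. Within type VI, Col6a1 over Col6a2 was 1.21 and 1.40 in KO hearts and 1.24 and 1.38 in WT hearts, and these ratios overlapped.

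**Figure D4:**
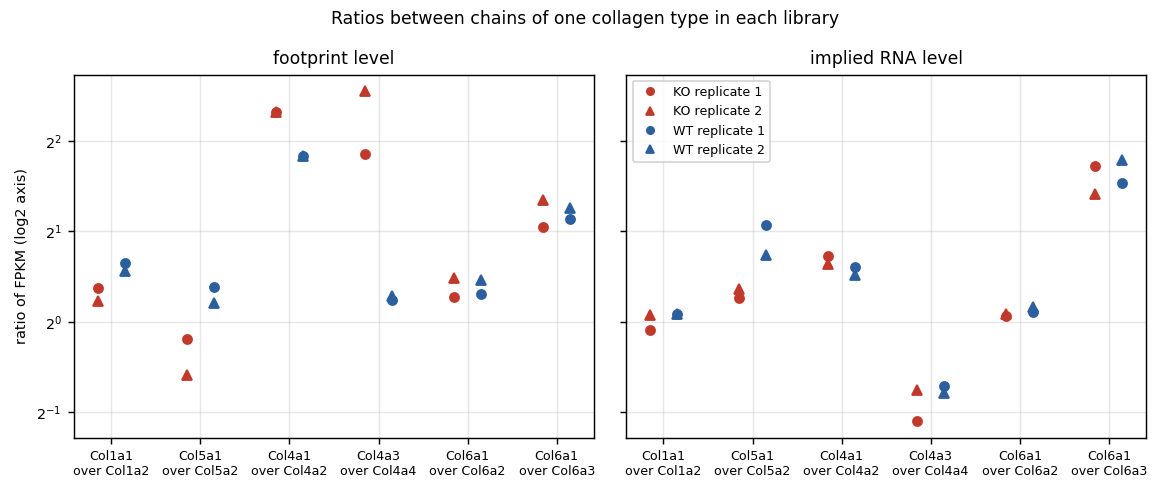
Points give the ratio of FPKM between chains of a collagen type in each library on a log2 axis, for footprints (left) and the implied RNA level (right), with KO libraries in red left of WT libraries in blue. In footprints the Col4a1 to Col4a2 ratio stands at 4.984 and 4.9997 in KO hearts, against 3.56 and 3.57 in WT hearts, and the type VI ratios overlap between the groups.

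Genes that make, export, process, bind and regulate collagen were taken as 6 lists. For folding and modification (hydroxylases, chaperones and glycosyltransferases, 20 genes tested), 0 were called in footprints, where the median log2 change was 0.86. In the implied RNA level 4 of the 20 rose and 0 fell, against 4.20% of all genes called higher, with a median of 0.82. The 4 were P3h2, a prolyl 3-hydroxylase (log2 change 2.64), Plod2, the lysyl hydroxylase of the crosslinking telopeptides (1.91), P4ha3 (2.698) and P4ha1 (1.44), catalytic subunits of prolyl 4-hydroxylase (limma adjusted p = 0.016, 0.016, 0.028 and 0.046, in that order). Plod2 had 447 and 1438 FPKM of footprints in KO hearts, against 176 and 155 FPKM in WT hearts. In footprints P4ha3 (2.64) and P3h2 (2.56) had the largest log2 changes of the list and P3h4 the smallest (-0.65).

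The enzymes that cleave and crosslink procollagen outside the cell held the most RNA calls of the lists, with 7 of 14 tested genes higher and 0 lower, against 4.20% and 1.53% of all genes. Lox, the lysyl oxidase that starts crosslinking, had 120 and 268 FPKM of footprints in KO hearts, against 22.7 and 24.4 FPKM in WT hearts (log2 change 2.88 ± 0.43 SE, limma adjusted p = 0.088). The implied RNA level of Lox, 43.1 and 29.3 FPKM in KO hearts against 5.57 and 8.15 FPKM in WT hearts, rose by 2.40 ± 0.29 SE on the log2 scale (limma adjusted p = 0.022). The others called in RNA were Loxl1 (log2 change 1.26), Loxl2 (1.77) and Loxl4 (2.23), its paralogues, Tgm2, a transglutaminase (1.82), Pcolce, the enhancer of C-propeptide cleavage (1.34), and Adamts2, the N-propeptidase (1.05), with limma adjusted p between 0.025 and 0.046. In footprints 0 of the 14 were called, with a median of 1.44. Adamts2 came nearest, with 311 and 313 FPKM in KO hearts against 84.2 and 90.3 FPKM in WT hearts (log2 change 1.83 ± 0.23 SE, limma adjusted p = 0.056). After Lox, Loxl4 had the largest footprint change of the list (2.54), and Adamts3 had the smallest (-0.75), Tll2 was below the limit for testing, and Mep1a and Mep1b were at 0 in all libraries.

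Export uses enlarged COPII vesicles. Of 12 export genes tested, 0 were called in either measure, with medians of 0.64 for footprints and 0.32 for RNA. Creb3l1 and Creb3l2, transcription factors of the secretory pathway, had the largest footprint changes (log2 change 1.81 and 1.37), and Klhl12, an adaptor that enlarges the vesicles, the smallest (-0.90). For collagen receptors, 2 of 9 tested genes rose in RNA, against 4.20% of all genes: Ddr1, a receptor tyrosine kinase for collagen (log2 change 1.43), and Mrc2, an endocytic collagen receptor (1.14), with limma adjusted p = 0.039 each. In footprints 0 of the 9 were called, and the changes ran between 0.09 for Lair1, an inhibitory immune receptor, and 1.92 for Itga2, an integrin subunit, with Itga11 at 1.34.

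TGF-beta is the classic inducer of collagen transcription in fibroblasts. Of 19 genes of its signalling tested, 3 rose and 1 fell in RNA, against 4.20% of all genes called higher and 1.53% lower. The ligands Tgfb2 (log2 change 2.69) and Tgfb3 (1.08) and the matrix protein Ltbp2 (3.56) rose (limma adjusted p = 0.016, 0.046 and 0.014, in that order). Ltbp1, which holds the latent ligand in the matrix, fell by 0.97 on the log2 scale (limma adjusted p = 0.049). Ltbp2 was listed by its family name, and its part in TGF-beta signalling was not tested. In footprints 0 were called, with a median of 0.83, and Ltbp2 (3.25) had the largest log2 change and Smad3 the smallest (-0.44). The laminins, nidogens and proteoglycans that partner type IV collagen gave 0 calls among 13 tested genes in either measure. Their median was 0.62 in footprints, against 0.85 for the basement membrane chains. In RNA it was 0.04, or -0.18 after scaling, against 0.69, or 0.47 after scaling, for those chains. Lamb3 had the smallest footprint change of these partners (-0.87).

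**Figure D5:**
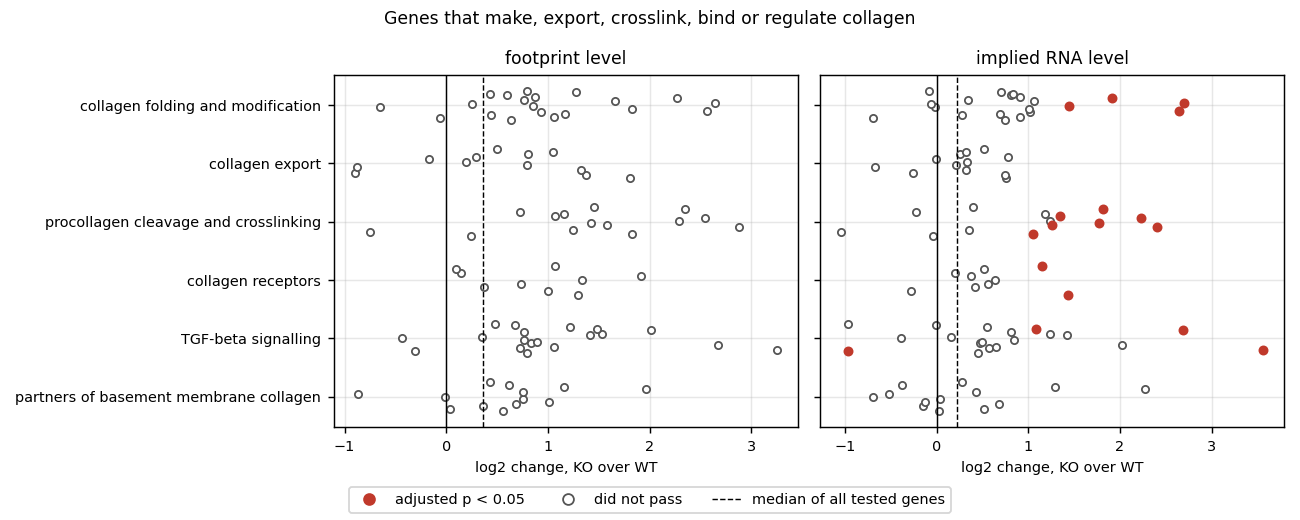
Each point is a gene of 6 lists around collagen, placed by its log2 change, KO over WT, in footprints (left) or implied RNA level (right), with filled red points past the limma adjusted p of 0.05 and the dashed line at the median of all tested genes (0.36 and 0.22). The left panel has 0 filled points, and the right panel has 7 for cleavage and crosslinking, 4 for folding and modification, 4 for TGF-beta signalling and 2 for receptors.

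Markers of the cell types that heart tissue can hold were read beside the chains. The summed footprints of 10 fibroblast markers were 5451 and 7871 FPKM in KO hearts, against 3010.1 and 3381 FPKM in WT hearts, and both KO libraries lay above both WT libraries for 8 of the 10, against 39.5% of all tested genes. Collagen footprints were 10.6 and 9.52 times these sums in KO hearts and 9.93 and 7.14 times in WT hearts, which overlap. At the implied RNA level the marker sums overlapped, at 1131 and 615 FPKM in KO hearts and 614 and 774 FPKM in WT hearts, and the collagen RNA was 2.86 and 4.26 times the marker RNA in KO hearts, against 2.42 and 2.28 times in WT hearts. Among the 10 fibroblast markers 1 was called higher in RNA, Tcf21, against 4.20% of all genes. The median RNA change of the markers was 0.04, or -0.18 after scaling. Relative to these markers, collagen was thus higher in both KO libraries in RNA and not in footprints, and the part of fibroblast number in the collagen levels was not tested.

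Of 8 markers of activated fibroblasts, 2 were called in footprints (Cthrc1 and Tagln) and 5 in RNA (Postn, Cthrc1, Tagln, Cilp and Meox1), all higher, where 0.253% of all genes were called higher in footprints and 4.20% in RNA. In RNA, Acta2 and Fap lay below WT in both KO libraries, with neither called. The summed footprints were 8538 and 12301 FPKM in KO hearts, against 5020.5 and 5054 FPKM in WT hearts. Acta2, also a marker of smooth muscle, had 2721 and 1816 FPKM in KO hearts, against 3365 and 3959 FPKM in WT hearts. Cardiomyocyte markers summed to 180104 and 226698 FPKM in KO hearts and 242621 and 289935 FPKM in WT hearts. Of these, 6 of 8 were lower in both KO libraries, against 12.1% of all tested genes. Nppa, the fetal and stress natriuretic peptide, was higher and is part of these sums. It had 21973 and 63917 FPKM in KO hearts, against 565 and 1223 FPKM in WT hearts. Nppa was the 1 called marker of the 8, in footprints (limma adjusted p = 0.041) and in RNA (limma adjusted p = 0.012). Endothelial markers summed to 2272 and 3519 FPKM in KO hearts and 1894 and 1701 FPKM in WT hearts, and macrophage markers to 873 and 1974 FPKM in KO hearts and 541 and 872 FPKM in WT hearts. In RNA 2 of the 8 macrophage markers were called higher, C1qa and Lyz2, against 4.20% of all genes, and 0 of the endothelial markers were called. Markers of smooth muscle and pericytes summed to 4852 and 4476 FPKM in KO hearts and 5231 and 5268 FPKM in WT hearts. Of these 8 markers, both KO libraries lay above both WT libraries for 5, against 39.5% of all tested genes, and below both for 1, Acta2, the most abundant. Their median log2 change in footprints was 0.46. Tagln, the 1 marker called higher, is the same gene counted above for activated fibroblasts. Apart from the chondrocyte markers given above, epicardial and Schwann cell markers were the rarest. Epicardial markers summed to 83.6 and 104 FPKM in KO hearts and 30.6 and 21.2 FPKM in WT hearts. In RNA 1 of the 2 tested epicardial markers was called higher, Krt19, against 4.20% of all genes. Schwann cell markers summed to 59.2 and 44.3 FPKM in KO hearts and 15.6 and 19.6 FPKM in WT hearts. What these differences contribute to the collagen levels was not tested.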

How the data were processed

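Ribosome footprints of 4 mouse heart libraries (2 KO, 2 WT, 1 batch label) were analysed from 2 tables. The submitters' processing notes name GRCm38 (mm10) as build and, without roles, STAR 2.7.4a, Bowtie 1.3.1, Cufflinks 2.2.1, HTSeq 0.13.5, cutadapt 3.7 and FastQC 0.11.9, and give no order, settings, counted feature or strand option. The authors deposited footprint FPKM per gene in 1 table and translation efficiency, a ratio made by the authors, in the other. The deposited FPKM are normalized values and not counts, so no count test was run and the depth is unknown. A TE of 0 was taken as missing. Of 59296 quotients of FPKM and TE, 59296 had no more than 6 significant digits (tolerance 1e-10), as printed values would, so the quotient served as implied RNA level. The labels do not describe the RNA libraries.

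Log2(FPKM + 1), log2 of the implied RNA level and log2 TE were fitted across all genes with limma 3.58.1 in R 4.3.3 (lmFit, eBayes with a mean-variance trend, two-sided, no covariate), with Benjamini-Hochberg adjustment and a threshold of 0.05. Footprints were tested for 15031 genes with FPKM of at least 1 in at least 2 libraries, and RNA and TE for the 12529 of these with TE above 0 in all libraries. Footprint folds are on the log2(FPKM + 1) scale and understate low genes. Whether replicate numbers pair the libraries is unknown. Deviations of same-numbered libraries correlated at 0.013 for footprints, -0.219 for RNA and -0.018 for TE. These values do not show a pairing, and with 2 libraries a group they cannot decide the question. The chains named in full are those of at least 100 FPKM of footprints in the mean of either group, the called ones and the smallest and largest change of each class, and of each list the genes that pass and the extremes in footprints, some of which are not reported here. The members and lists were chosen with earlier results of these data known. All 44 chains matched RefSeq by symbol (GRCm38.p6), the source of positions and promoters.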

Additional observations from a re-analysis of the deposited data

How the results depend on the processing

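For footprints, all genes gave 57 calls, against 220 without small RNA genes and unnamed models, 143 with the replicate block, 36 without the mean-variance trend, 34 with a pseudocount of 0.1, 8 without a filter on low values and 0 without any single library. The chains, with 0 calls, gave 6 without small RNA genes and unnamed models and 4 with the replicate block (Col1a2, Col5a2, Col8a1 and Col12a1). The summed footprint fold of 2.45 was 1.89 with median-ratio scaling, where the Col15a1 change reversed to -0.204. For the implied RNA level, all genes gave 718 calls, against 67 without the trend, 1429 with the replicate block, 3241 with the crossed pairing, and 704 (without WT replicate 1) to 3742 (without KO replicate 2) with 1 library left out. The 5 called chains became 1 without the trend (Col8a1), 9 with the replicate block, 22 with the crossed pairing, and 4 (without KO replicate 1) to 22 (without KO replicate 2) with 1 library left out, 11 of them without WT replicate 2. Without the trend, adjusted p was 0.082 for Col5a2, 0.080 for Col8a2, 0.052 for Col9a2 and 0.0503 for Col12a1. The crossed pairing was chosen after seeing the data, because same-numbered RNA deviations correlated below 0. TE gave 0 calls, against 178 with the replicate block, 1 each without small RNA genes and unnamed models, with FPKM of at least 5 and without the trend, and 0 to 33 with 1 library left out (33 without WT replicate 1, 8 without WT replicate 2), none of them a chain. The median TE change of the chains, 0.386, reversed to -0.0228 without KO replicate 2 and -0.0575 without WT replicate 2, and reached 0.851 without WT replicate 1. Over the alternatives for single chains, footprints kept direction and side of the threshold in 217 cases, newly passed in 10 and reversed in 1, and RNA kept them in 194, newly passed in 28 and lost the call in 6. These cases cover the chains of at least 100 FPKM of footprints in the mean of either group and those called in RNA. Rarer chains are not counted there, and some of them reversed. With median-ratio scaling, Col6a6 turned from 0.218 to -0.138 in footprints and Col13a1 from 0.138 to -0.080 in RNA. With 1 library left out, the footprint change of Col4a4 ran from -0.26 to 1.04 and that of Col9a3 from -0.17 to 1.94. The cause of these changes was not tested. FPKM give no counting error, so the precision of chains near 1 FPKM is unknown.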
